A study of Rattus norvegicus with 12 samples.

Results

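The genes described here copy the genome or carry out cell division: 45 were listed, 25 with a role in DNA replication and 20 with a role in mitosis. A gene was kept where the platform's gene table gave it as the only symbol of a probe set, and it was read through its probe set with the highest mean over the 12 arrays. By this rule 43 genes were found, 23 of replication and 20 of mitosis, among 14218 genes with a symbol of their own. Rrm2 and Cdc6 were not found in this way and are not analysed here. All 43 passed the filter on low levels, which left 10510 genes for testing.

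Replication starts where a ring of MCM helicase proteins, loaded onto origins with the help of Cdt1 and held back by geminin (Gmnn), is switched on by cyclin E or cyclin A with Cdk2. Polymerases, primase, the sliding clamp and its loader then copy the strands from nucleotides supplied by ribonucleotide reductase, thymidylate synthase and thymidine kinase. In mitosis cyclin B with Cdk1, the Aurora and Polo kinases, the spindle checkpoint and the motors of the spindle separate the copied chromosomes. Transcripts of both groups rise and fall with the cell cycle, and mouse embryonic stem cells are known for a cycle with short gap phases.

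The study asked whether rat induced pluripotent stem (iPS) cells resemble rat embryonic stem (ES) cells in gene expression. RNA of 6 lines or cultures was hybridised to 12 single-colour rat arrays, 2 per line. The iPS lines A1 and A2 came from rats of the FHH strain and, per the series title, were made with a transposon system. Their RNA was taken 5 days after passage, as was that of the ES lines DAC2 and DAC8, for which the labels name no strain. The labels' protocols place both kinds of stem cell in 2i medium and also describe iPS culture on mitomycin C-treated mouse feeder fibroblasts with the cytokine LIF. The arrays labelled REF1 and REF2 were of FHH embryonic fibroblasts (EF) from e14.5 embryos, grown in MEF medium and taken 6 days after passage. The labels do not say whether both arrays of a line were separate cultures, so p-values between lines measure only the spread between arrays, which may be technical.

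The arrays had like medians, from 5.28 to 5.41 on the log2 scale. Marker genes went against the labels of DAC8, REF2 and the iPS lines. The 15 fibroblast markers had median levels of 11.49 to 11.98 on the arrays labelled DAC8 and REF1, with 13 to 14 markers at a level of 5 or above, and of 4.17 to 4.58 on the other arrays. Of 15 ES cell markers listed 9 were found, and the marker lists were chosen with earlier results of these data known. These 9 had medians of 10.41 to 10.84, with 9 of 9 at 5 or above, on the arrays labelled DAC2 and REF2, and of 3.32 to 4.79 elsewhere. The 15 neural markers had medians of 10.54 to 10.62, with 15 of 15 at 5 or above, in A1 and A2, against 4.41 to 5.19 elsewhere, and only 2 to 4 of the 9 ES cell markers reached 5 in these iPS lines. Among those that did were Sall4, with means of 8.22 in A1 and 8.25 in A2, and Lin28a, with 5.34 and 5.85. Both lay above DAC8 and REF1 and below DAC2 and REF2. No array was moved to another group, so each line's name means the arrays that carry its label, and lines are compared one by one. The actin control's 3' probe set exceeded its 5' probe set by 0.42 to 0.52 in DAC8 and REF1 and by 0.84 to 1.05 in the other lines. This measure of RNA quality moved with the levels reported next. The same difference for the GAPDH control did not split the lines in this way. It was 0.01 to 0.04 in DAC8, -0.10 to -0.06 in REF1 and -0.12 to -0.07 in the other lines. The part of RNA quality in the levels was not tested. In bulk RNA, a smaller share of dividing cells and less of these transcripts per cell cannot be told apart.

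Promoter sequences are shown because each group of genes is known for its own short promoter elements. E2F factors, which act on genes of the S phase, bind TTCCCGC or TTGGCGC, the cell cycle genes homology region (CHR) of mitotic genes reads TTTGAA or TTCGAA, and NF-Y binds CCAAT. A promoter window of 250 bases before to 50 after the start, from RefSeq on GRCr8, was matched for 40 of the 43 genes, 22 of replication and 18 of mitosis; Aurkb, Ccna2 and Mcm4 had no entry. The 200 bases upstream of the start are printed 5′ to 3′ on the gene's strand for 3 genes of each group that are described below with wide differences between lines, with matches to these motifs on either strand in capitals. In Chek1, on the minus strand at chr8:44629844-44630043, Pola1, on the minus strand at chrX:62342356-62342555, and Mcm5, on the plus strand at chr19:13488613-13488812, the capitals mark E2F letters in each and CCAAT letters in Pola1 and Mcm5.
Chek1: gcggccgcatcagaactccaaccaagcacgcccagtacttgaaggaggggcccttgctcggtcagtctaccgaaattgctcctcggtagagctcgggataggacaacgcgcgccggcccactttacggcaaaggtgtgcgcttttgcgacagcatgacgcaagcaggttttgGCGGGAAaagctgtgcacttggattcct
Pola1: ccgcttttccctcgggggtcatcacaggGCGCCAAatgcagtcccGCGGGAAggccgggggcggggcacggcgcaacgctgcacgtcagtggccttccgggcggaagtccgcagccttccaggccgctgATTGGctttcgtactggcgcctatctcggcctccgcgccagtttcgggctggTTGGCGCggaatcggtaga
Mcm5: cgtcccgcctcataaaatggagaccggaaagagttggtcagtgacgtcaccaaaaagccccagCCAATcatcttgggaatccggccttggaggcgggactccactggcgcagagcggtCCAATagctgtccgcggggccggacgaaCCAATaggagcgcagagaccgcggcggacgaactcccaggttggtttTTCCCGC
In Top2a, on the minus strand at chr10:84473094-84473293, Birc5, on the plus strand at chr10:103571946-103572145, and Cdc20, on the minus strand at chr5:137255800-137255999, they mark CHR letters in each and CCAAT letters in Top2a and Cdc20.
Top2a: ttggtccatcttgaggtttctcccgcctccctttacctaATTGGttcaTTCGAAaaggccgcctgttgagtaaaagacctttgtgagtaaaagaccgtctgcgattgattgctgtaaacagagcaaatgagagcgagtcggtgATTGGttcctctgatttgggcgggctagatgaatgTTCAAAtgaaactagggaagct
Birc5: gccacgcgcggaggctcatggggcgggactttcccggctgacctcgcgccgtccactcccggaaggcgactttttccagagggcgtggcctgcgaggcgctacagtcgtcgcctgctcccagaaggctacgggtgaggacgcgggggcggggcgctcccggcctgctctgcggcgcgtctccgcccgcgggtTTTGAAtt
Cdc20: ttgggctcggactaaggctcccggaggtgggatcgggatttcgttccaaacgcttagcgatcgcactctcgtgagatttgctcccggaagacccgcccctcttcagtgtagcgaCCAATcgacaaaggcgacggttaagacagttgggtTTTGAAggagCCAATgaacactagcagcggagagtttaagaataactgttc
An E2F motif occurred in 14 of 22 replication promoters (63.6%) and 3 of 18 mitosis promoters (16.7%), against 6.26% of 33469 rat promoter windows and 10.6% of the 13243 windows of genes on the array. A CHR motif occurred in 13 of 18 mitosis promoters (72.2%) and 4 of 22 replication promoters (18.2%). It occurred in 19.7% of all windows and 14.3% of the windows of genes on the array. CCAAT occurred in 14 of 18 (77.8%) and 12 of 22 (54.5%), against 37.5%, and 2 or more copies stood in 61.1% and 18.2%, against 11.2%. CHR and CCAAT stood together in 11 mitosis promoters (61.1%) and 3 replication promoters (13.6%), against 7.95% of all windows. In windows of genes on the array CCAAT occurred in 36.8%, 2 or more copies in 12.3%, and CHR with CCAAT in 5.8%. Of the genes with E2F letters, Pola1 had 4 matches and Cdt1, Mcm5, Mcm6, Mcm7 and Rrm1 had 2 each. The mitosis promoters with E2F letters were those of Cdk1, Ect2 and Mki67, each of which also had CHR and CCAAT letters. These are matches of letters and say nothing of binding. The CHR letters TTCGAA read the same on both strands and were counted once.

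Levels of the replication and mitosis genes were high in DAC2 and REF2, intermediate in A1 and A2 and low in DAC8 and REF1. Each gene's level was set against its mean over the 6 lines. The median of these deviations over the 23 replication genes was 0.62 in DAC2, 0.65 in REF2, 0.26 in A1, 0.25 in A2, -0.82 in DAC8 and -0.81 in REF1, in log2 units. Over the 20 mitosis genes it was 0.89, 0.74, 0.33, 0.28, -0.99 and -1.22 in the same order, so the mitosis genes lay further from their mean than the replication genes in each line. Over all genes tested the medians lay between -0.12 and 0.06. The mitosis genes also spanned a wider range of line means, 1.37 to 2.77 with a median of 2.06, than the replication genes, 0.70 to 2.80 with a median of 1.69. The SD of both arrays of a line had a median of 0.045 for replication genes and 0.041 for mitosis genes.

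**Figure D1:**
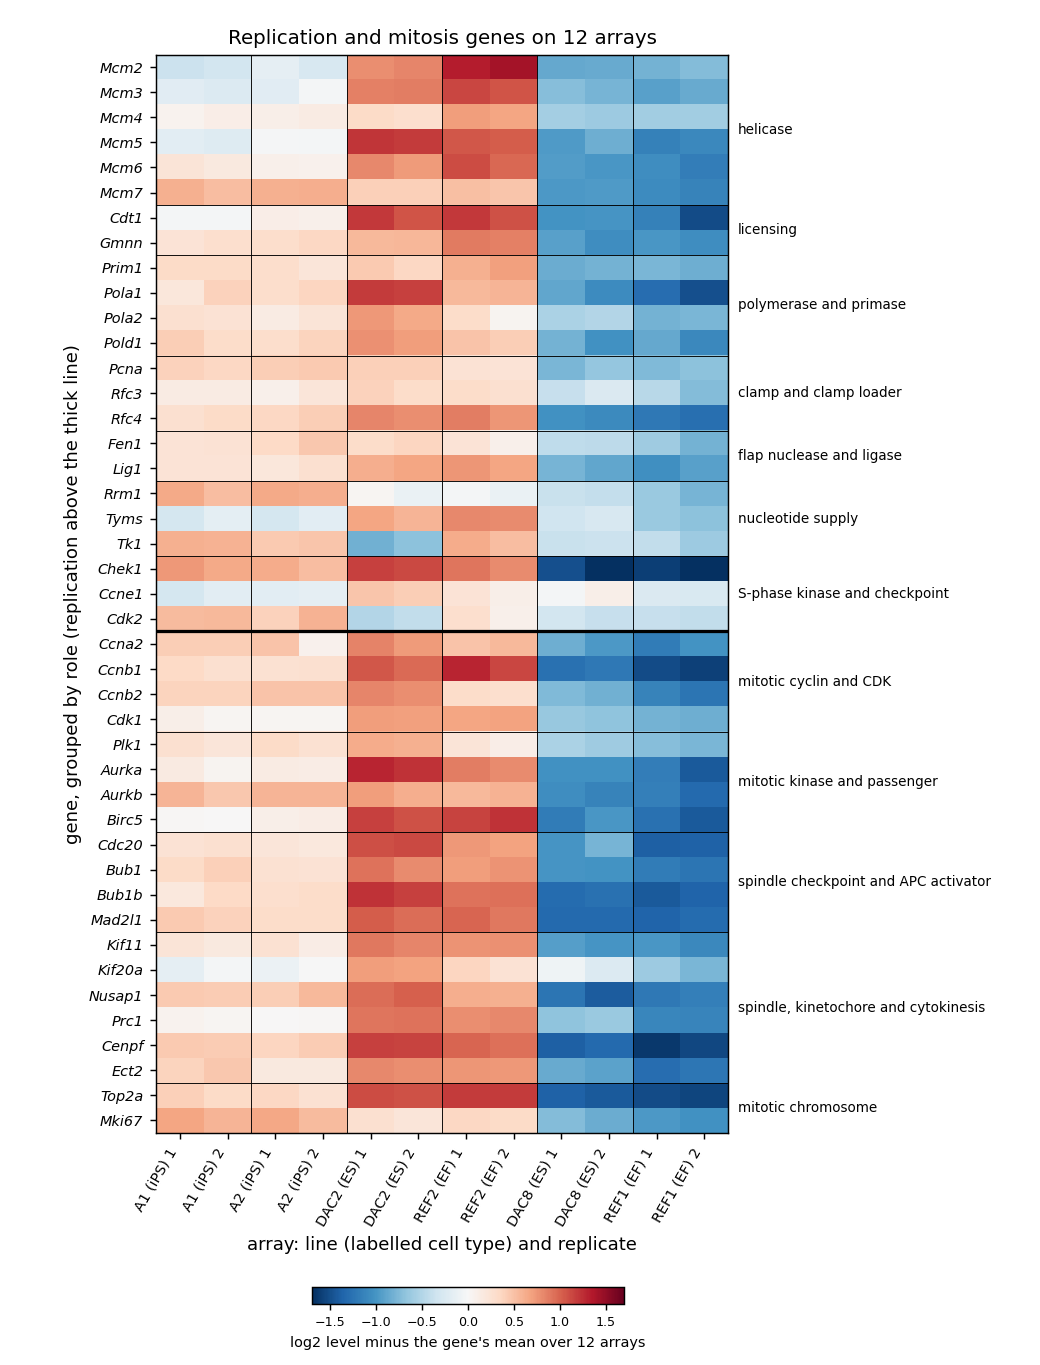
Deviation of each gene's log2 level from its mean, in log2 units by the colour scale, for the 43 genes in rows grouped by role and the 12 arrays in columns grouped by line. Median deviations of the mitosis genes ran from -1.22 in REF1 to 0.89 in DAC2, and Tk1, Cdk2, Rrm1 and Ccne1 depart from the colours of their neighbours.

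In limma's moderated F test over the 6 lines, all 43 genes were called at a Benjamini-Hochberg adjusted p under 0.05, the highest being 3.31e-05 for Ccne1. Of all genes tested 96.7% were called, so this count says little of these genes in particular. In 28 of the 43 genes, 14 of replication and 14 of mitosis, every array of DAC2 and REF2 lay above every array of A1 and A2, which in turn lay above every array of DAC8 and REF1, an order chosen after the levels were seen. Of all genes tested 12.8% had it. Every array of A1 and A2 lay above every array of DAC8 and REF1 in 40 genes, against 45.9% of all genes, the exceptions being Tyms, Ccne1 and Kif20a. Those of DAC2 and REF2 lay above those of A1 and A2 in 31 genes, against 36.9% of all genes, and below them in 4, Mcm7, Rrm1, Cdk2 and Mki67, against 35.5%. Both arrays of DAC8 lay above both of REF1 in 32 genes, against 32.7% of all genes. The highest line mean fell in REF2 for 9 replication genes, in DAC2 for 8, in A2 for 4 and in A1 for 2. Among mitosis genes DAC2 was highest for 16, REF2 for 3 and A1 for 1. The lowest line was REF1 for 18 replication and 19 mitosis genes.

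The MCM helicase subunits were mostly lower in the iPS lines than in DAC2, and Mcm5 was the replication gene with the largest drop. Mcm5 had log2 levels of 8.45 and 8.42 in A1, 8.61 and 8.59 in A2, 9.85 and 9.83 in DAC2 and 9.68 and 9.66 in REF2, with 7.66 and 7.80 in DAC8 and 7.48 and 7.53 in REF1. DAC2 and REF2 stood apart from A1 and A2, and these from DAC8 and REF1, without overlap. Mcm5 was lower in A1 than in DAC2 by 1.41 ± 0.058 log2 units (SE, limma adjusted p = 1.78e-08) and higher in DAC2 than in REF1 by 2.33 ± 0.058 log2 units (SE, limma adjusted p = 4.06e-10). In log2 units Mcm2 read 9.45 and 9.51 in A1, 9.66 and 9.54 in A2, 10.60 and 10.65 in DAC2 and 11.14 and 11.22 in REF2, with 8.95 and 8.96 in DAC8 and 9.01 and 9.07 in REF1. Mcm2 kept this order, but DAC8 and REF1 stood close below the iPS lines: A1 exceeded REF1 by only 0.44 ± 0.061 log2 units (SE, limma adjusted p = 9.92e-05). DAC2 was lower than REF2 by 0.56 ± 0.061 log2 units (SE, limma adjusted p = 0.000106). For Mcm3 the arrays gave 8.46 and 8.42 in A1, 8.47 and 8.63 in A2, 9.51 and 9.53 in DAC2 and 9.80 and 9.73 in REF2, with 7.94 and 7.87 in DAC8 and 7.74 and 7.80 in REF1. Mcm3 followed the same order, and A1 lay below DAC2 by 1.08 ± 0.065 log2 units (SE, limma adjusted p = 2.77e-07). The Mcm6 levels (log2) were 10.69 and 10.64 in A1, 10.56 and 10.55 in A2, 11.30 and 11.21 in DAC2 and 11.59 and 11.46 in REF2, with 9.52 and 9.49 in DAC8 and 9.42 and 9.30 in REF1. In Mcm6 the iPS lines stood nearer to DAC2, 0.58 ± 0.066 log2 units (SE, limma adjusted p = 2.59e-05) below it in A1, and further from REF1, 1.31 ± 0.066 log2 units (SE, limma adjusted p = 6.46e-08) above it. Mcm4 was lower in A1 than in DAC2 by 0.22 ± 0.049 log2 units (SE, limma adjusted p = 0.00269). Mcm7 had log2 levels of 11.37 and 11.30 in A1, 11.36 and 11.38 in A2, 11.17 and 11.17 in DAC2 and 11.28 and 11.23 in REF2, with 9.80 and 9.81 in DAC8 and 9.69 and 9.63 in REF1. Mcm7 was the helicase subunit that went the other way: every iPS array lay above every array of DAC2 and REF2, although by little. The difference of A1 from DAC2 was 0.17 ± 0.052 log2 units (SE, limma adjusted p = 0.0142). Against REF2 neither iPS line was called. The difference was 0.08 ± 0.052 log2 units in A1 (SE, limma adjusted p = 0.192) and 0.12 ± 0.052 in A2 (SE, limma adjusted p = 0.0638).

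Licensing and checkpoint genes were high in DAC2 and REF2 and low in DAC8 and REF1. In log2 units Chek1 read 9.30 and 9.21 in A1, 9.20 and 9.10 in A2, 9.74 and 9.69 in DAC2 and 9.48 and 9.38 in REF2, with 7.07 and 6.84 in DAC8 and 6.96 and 6.86 in REF1. Chek1, the checkpoint kinase that halts the cycle when replication forks stall, had the widest range of all 43 genes, and its DAC8 and REF1 arrays lay more than 2 log2 units below every other array. DAC2 exceeded REF1 by 2.80 ± 0.084 log2 units (SE, limma adjusted p = 1.41e-09). Its difference of A1 from DAC2 was smaller, 0.46 ± 0.084 log2 units (SE, limma adjusted p = 0.000765). For Cdt1 the arrays gave 8.78 and 8.78 in A1, 8.93 and 8.91 in A2, 10.02 and 9.89 in DAC2 and 10.02 and 9.90 in REF2, with 7.81 and 7.81 in DAC8 and 7.67 and 7.30 in REF1. Cdt1, the loader of the helicase, overlapped between DAC2 and REF2 and was a step lower in both iPS lines. A1 lay below DAC2 by 1.17 ± 0.11 log2 units (SE, limma adjusted p = 5.01e-06) and above REF1 by 1.30 ± 0.11 log2 units (SE, limma adjusted p = 2.02e-06). Gmnn, the inhibitor of Cdt1, was lower in A1 than in DAC2 by 0.30 ± 0.06 log2 units (SE, limma adjusted p = 0.00123) and higher than in REF1 by 1.28 ± 0.06 log2 units (SE, limma adjusted p = 3.85e-08). A dim second probe set of Gmnn went the other way between A1 and DAC2, with line means of 4.99 and 4.57. Its mean in REF1 was 4.26.

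The cyclin E and Cdk2 pair that starts the S phase did not follow the group. The Ccne1 levels (log2) were 8.18 and 8.31 in A1, 8.31 and 8.33 in A2, 8.96 and 8.91 in DAC2 and 8.72 and 8.58 in REF2, with 8.45 and 8.58 in DAC8 and 8.24 and 8.23 in REF1. Ccne1 had the smallest range of all 43 genes, its iPS and REF1 arrays lay close together, and DAC8 lay above the iPS lines. A1 differed from REF1 by 0.01 ± 0.071 log2 units (SE, limma adjusted p = 0.883) and was lower than DAC8 by 0.27 ± 0.071 log2 units (SE, limma adjusted p = 0.00609). Cdk2 had log2 levels of 8.43 and 8.43 in A1, 8.27 and 8.48 in A2, 7.39 and 7.47 in DAC2 and 8.17 and 7.97 in REF2, with 7.57 and 7.49 in DAC8 and 7.49 and 7.46 in REF1. Cdk2 was highest in the iPS lines, and its DAC2 arrays overlapped with those of REF1. A1 exceeded DAC2 by 1.00 ± 0.086 log2 units (SE, limma adjusted p = 3.57e-06), and DAC2 differed from REF1 by -0.05 ± 0.086 log2 units (SE, limma adjusted p = 0.623). The second probe set of Cdk2 gave line means of 7.47 and 7.46 in A1 and A2, 6.80 in DAC2, 7.34 in REF2, and 6.49 and 6.56 in DAC8 and REF1, again lower in DAC2 than in the iPS lines.

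Polymerase and fork genes showed both patterns. In log2 units Pola1 read 8.44 and 8.65 in A1, 8.55 and 8.61 in A2, 9.44 and 9.41 in DAC2 and 8.80 and 8.83 in REF2, with 7.36 and 7.18 in DAC8 and 6.95 and 6.76 in REF1. Pola1, the catalytic subunit of the polymerase that starts each strand, was highest in DAC2, and REF2 lay nearer to the iPS lines than to DAC2. DAC2 exceeded REF2 by 0.61 ± 0.092 log2 units (SE, limma adjusted p = 0.000687) and A1 by 0.88 log2 units. For Rfc4 the arrays gave 10.15 and 10.21 in A1, 10.22 and 10.30 in A2, 10.70 and 10.67 in DAC2 and 10.74 and 10.63 in REF2, with 8.85 and 8.79 in DAC8 and 8.65 and 8.59 in REF1. Rfc4, of the clamp loader, overlapped between DAC2 and REF2, with A1 lower than DAC2 by 0.51 ± 0.06 log2 units (SE, limma adjusted p = 3.48e-05). The Rfc3 levels (log2) were 8.45 and 8.46 in A1, 8.40 and 8.52 in A2, 8.71 and 8.63 in DAC2 and 8.63 and 8.60 in REF2, with 7.93 and 8.07 in DAC8 and 7.85 and 7.58 in REF1. Rfc3, of the same loader, had a narrow range, and A1 differed from DAC2 by -0.21 ± 0.092 log2 units (SE, limma adjusted p = 0.0589). Fen1 had log2 levels of 8.73 and 8.74 in A1, 8.84 and 8.96 in A2, 8.81 and 8.86 in DAC2 and 8.73 and 8.58 in REF2, with 8.06 and 8.05 in DAC8 and 7.89 and 7.69 in REF1. Fen1, which trims flaps from the lagging strand, overlapped between A2 and DAC2 and between A1 and REF2, and was lower in DAC8 and REF1. A1 exceeded REF1 by 0.94 ± 0.08 log2 units (SE, limma adjusted p = 2.62e-06) and differed from DAC2 by -0.10 ± 0.08 log2 units (SE, limma adjusted p = 0.27). In log2 units Pcna read 12.24 and 12.20 in A1, 12.26 and 12.30 in A2, 12.25 and 12.26 in DAC2 and 12.09 and 12.09 in REF2, with 11.08 and 11.19 in DAC8 and 11.09 and 11.15 in REF1. Pcna, the sliding clamp, had its DAC2 arrays between those of A1 and A2, and every array of these lines and of REF2 lay above DAC8 and REF1. The difference of A1 from REF1 was 1.10 ± 0.054 log2 units (SE, limma adjusted p = 5.74e-08).

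Nucleotide supply genes differed from one another in their pattern. For Tk1 the arrays gave 8.97 and 8.95 in A1, 8.81 and 8.84 in A2, 7.54 and 7.66 in DAC2 and 9.0 and 8.88 in REF2, with 7.99 and 8.0 in DAC8 and 7.95 and 7.75 in REF1. Tk1, the salvage thymidine kinase, overlapped between REF2 and A1 but was lower in DAC2 than on any other array. DAC2 was lower than A1 by 1.36 ± 0.076 log2 units (SE, limma adjusted p = 1.61e-07) and lower than REF2 by 1.34 ± 0.076 log2 units (SE, limma adjusted p = 2.7e-06). A second probe set of Tk1 gave line means of 8.66 and 8.49 in A1 and A2, 7.39 in DAC2, 9.18 in REF2, and 7.70 and 7.47 in DAC8 and REF1, and a dimmer probe set gave 5.89, 6.15, 5.40, 5.35, 5.04 and 5.19 in the same order. The Rrm1 levels (log2) were 10.20 and 10.08 in A1, 10.20 and 10.17 in A2, 9.59 and 9.45 in DAC2 and 9.52 and 9.44 in REF2, with 9.17 and 9.15 in DAC8 and 8.93 and 8.77 in REF1. Rrm1, the large subunit of ribonucleotide reductase, was highest in both iPS lines without overlap. A1 exceeded DAC2 by 0.63 ± 0.075 log2 units (SE, limma adjusted p = 4.1e-05) and REF1 by 1.29 ± 0.075 log2 units (SE, limma adjusted p = 1.8e-07). Tyms had log2 levels of 7.28 and 7.41 in A1, 7.28 and 7.40 in A2, 8.25 and 8.15 in DAC2 and 8.39 and 8.39 in REF2, with 7.24 and 7.31 in DAC8 and 6.94 and 6.88 in REF1. Tyms, the synthase of the same nucleotide branch as Tk1, was instead high only on the DAC2 and REF2 arrays, and its iPS arrays overlapped with DAC8. A1 was lower than DAC2 by 0.86 ± 0.069 log2 units (SE, limma adjusted p = 2.11e-06). Mcm7, Pcna, Tk1, Rrm1 and Tyms were singled out after their values were seen.

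**Figure D2:**
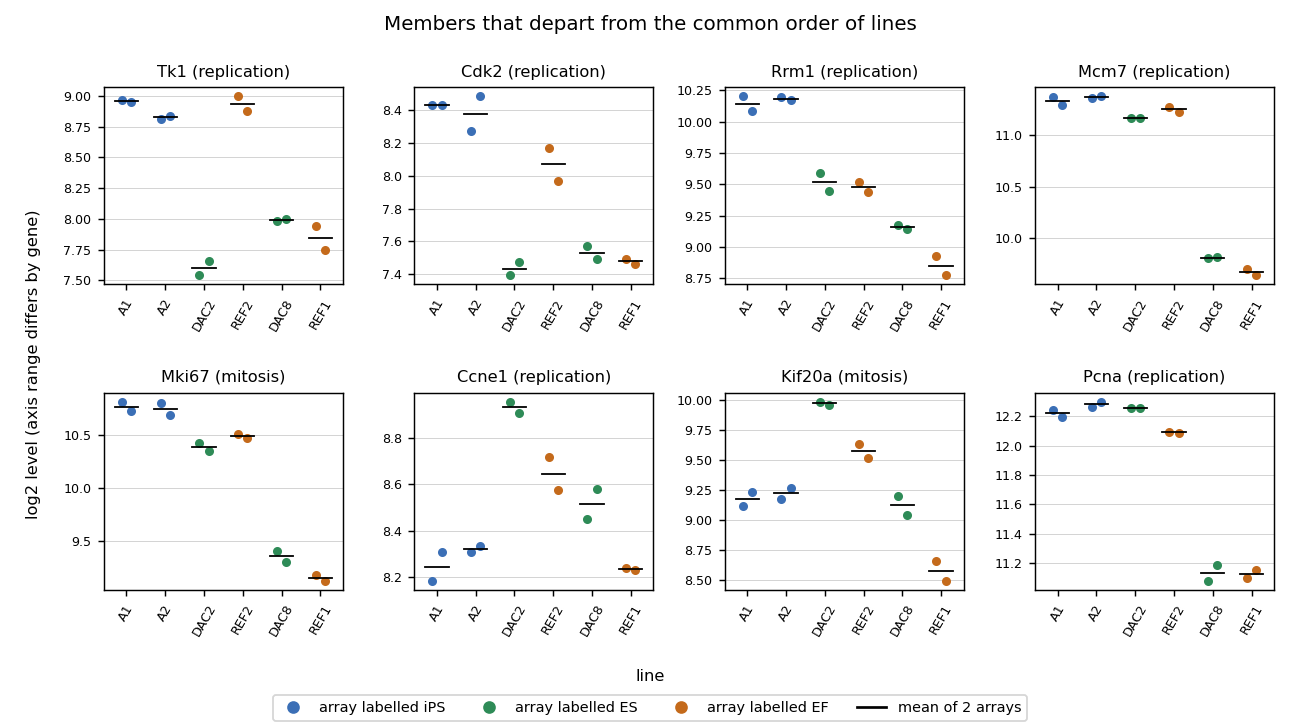
Log2 level on each of the 12 arrays, 2 per line, for 8 genes chosen after their values were seen because they depart from the order of the group. Tk1 and Cdk2 are low in DAC2, Rrm1, Mcm7 and Mki67 are highest in A1 and A2, Pcna in DAC2 lies between A1 and A2, Ccne1 is higher in DAC8 than in A1 and Kif20a overlaps between them.

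Among the mitosis genes, cyclin B and its kinase followed the common order. In log2 units Ccnb1 read 10.72 and 10.65 in A1, 10.64 and 10.65 in A2, 11.43 and 11.34 in DAC2 and 11.67 and 11.51 in REF2, with 9.10 and 9.16 in DAC8 and 8.86 and 8.78 in REF1. Ccnb1, a cyclin that drives entry into mitosis, separated all 3 levels without overlap on the probe set used. There DAC2 exceeded REF1 by 2.57 ± 0.067 log2 units (SE, limma adjusted p = 5.79e-10) and A1 by 0.71 log2 units. A second Ccnb1 probe set gave line means of 10.81 and 10.87 in A1 and A2, 10.90 in DAC2 and 10.95 in REF2. It gave 8.37 and 8.39 in DAC8 and REF1, and its A1 mean lay only 0.09 log2 units below that of DAC2. For Cdk1 the arrays gave 10.62 and 10.55 in A1, 10.56 and 10.55 in A2, 11.24 and 11.22 in DAC2 and 11.19 and 11.20 in REF2, with 9.87 and 9.84 in DAC8 and 9.72 and 9.69 in REF1. Cdk1, its kinase, kept the same order within a smaller range, with A1 lower than DAC2 by 0.64 ± 0.048 log2 units (SE, limma adjusted p = 1.3e-06) and higher than REF1 by 0.88 ± 0.048 log2 units (SE, limma adjusted p = 1.14e-07). Ccnb2 differed from Ccnb1 in REF2, which was lower than DAC2 by 0.51 ± 0.054 log2 units (SE, limma adjusted p = 9.66e-05) with a mean of 10.78, against 10.86 in A1.

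Checkpoint genes were among those with the widest ranges. The Bub1b levels (log2) were 8.83 and 8.99 in A1, 8.94 and 8.95 in A2, 9.88 and 9.81 in DAC2 and 9.57 and 9.59 in REF2, with 7.34 and 7.37 in DAC8 and 7.22 and 7.28 in REF1. Bub1b, a kinase of the spindle checkpoint, was lower in A1 than in DAC2 by 0.94 ± 0.063 log2 units (SE, limma adjusted p = 6.09e-07) and higher than in REF1 by 1.66 ± 0.063 log2 units (SE, limma adjusted p = 9.5e-09). Mad2l1 had log2 levels of 9.55 and 9.50 in A1, 9.41 and 9.42 in A2, 10.13 and 10.05 in DAC2 and 10.10 and 10.00 in REF2, with 7.78 and 7.79 in DAC8 and 7.75 and 7.80 in REF1. Mad2l1, of the same checkpoint, overlapped between DAC8 and REF1 and between DAC2 and REF2, with the iPS lines between them. A1 was lower than DAC2 by 0.56 ± 0.056 log2 units (SE, limma adjusted p = 1e-05) and higher than REF1 by 1.75 ± 0.056 log2 units (SE, limma adjusted p = 2.88e-09). In log2 units Cdc20 read 9.71 and 9.74 in A1, 9.67 and 9.65 in A2, 10.56 and 10.59 in DAC2 and 10.20 and 10.15 in REF2, with 8.46 and 8.68 in DAC8 and 8.08 and 8.10 in REF1. Cdc20, which activates the ligase that ends mitosis, had a different level in DAC2 and REF2 and in DAC8 and REF1. DAC2 exceeded REF2 by 0.40 ± 0.07 log2 units (SE, limma adjusted p = 0.00161) and DAC8 exceeded REF1 by 0.48 ± 0.07 log2 units (SE, limma adjusted p = 0.00179).

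Mitotic kinases varied in size of difference. For Aurka the arrays gave 9.26 and 9.15 in A1, 9.25 and 9.22 in A2, 10.40 and 10.34 in DAC2 and 9.97 and 9.91 in REF2, with 8.08 and 8.08 in DAC8 and 7.93 and 7.67 in REF1. Aurka, the Aurora kinase of the spindle poles, was the mitosis gene with the largest drop from DAC2 to A1, 1.17 ± 0.084 log2 units (SE, limma adjusted p = 9.31e-07). The Birc5 levels (log2) were 8.35 and 8.34 in A1, 8.44 and 8.45 in A2, 9.49 and 9.41 in DAC2 and 9.48 and 9.56 in REF2, with 7.14 and 7.34 in DAC8 and 7.06 and 6.91 in REF1. Birc5, or survivin, a subunit of the passenger complex that holds Aurora B, was lower in A1 than in DAC2 by 1.11 ± 0.08 log2 units (SE, limma adjusted p = 9.7e-07). Aurkb itself differed between A1 and DAC2 by -0.15 ± 0.071 log2 units (SE, limma adjusted p = 0.0836) and exceeded REF1 in A1 by 1.76 ± 0.071 log2 units (SE, limma adjusted p = 1.35e-08). Plk1 had log2 levels of 9.02 and 8.95 in A1, 9.07 and 9.01 in A2, 9.38 and 9.35 in DAC2 and 8.97 and 8.85 in REF2, with 8.21 and 8.14 in DAC8 and 8.02 and 7.96 in REF1. Plk1, the Polo kinase, had the smallest range of the mitosis genes, and its REF2 arrays overlapped with A1. DAC2 exceeded REF2 by 0.45 ± 0.061 log2 units (SE, limma adjusted p = 0.000339).

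Genes of the mitotic chromosome and spindle closed the group. In log2 units Top2a read 10.50 and 10.42 in A1, 10.45 and 10.36 in A2, 11.21 and 11.18 in DAC2 and 11.29 and 11.29 in REF2, with 8.73 and 8.68 in DAC8 and 8.58 and 8.54 in REF1. Top2a, the topoisomerase that untangles copied chromosomes, had the largest F statistic of the 43 genes, and its 3 levels were separated by more than 0.5 log2 units. DAC2 exceeded REF1 by 2.64 ± 0.056 log2 units (SE, limma adjusted p = 1.47e-10) and A1 by 0.73 log2 units. For Cenpf the arrays gave 9.74 and 9.73 in A1, 9.66 and 9.72 in A2, 10.46 and 10.44 in DAC2 and 10.28 and 10.24 in REF2, with 7.91 and 7.97 in DAC8 and 7.65 and 7.75 in REF1. Cenpf, of the kinetochore, was lower in A1 than in DAC2 by 0.71 ± 0.056 log2 units (SE, limma adjusted p = 1.74e-06) and higher than in REF1 by 2.04 ± 0.056 log2 units (SE, limma adjusted p = 1.07e-09). The Mki67 levels (log2) were 10.82 and 10.73 in A1, 10.81 and 10.70 in A2, 10.43 and 10.36 in DAC2 and 10.51 and 10.47 in REF2, with 9.41 and 9.31 in DAC8 and 9.18 and 9.13 in REF1. Mki67, the coat of mitotic chromosomes and a common marker of dividing cells, was the mitosis gene whose iPS arrays all lay above DAC2 and REF2. A1 exceeded DAC2 by 0.38 ± 0.065 log2 units (SE, limma adjusted p = 0.000475) and REF1 by 1.62 ± 0.065 log2 units (SE, limma adjusted p = 1.36e-08). Kif20a had log2 levels of 9.12 and 9.24 in A1, 9.18 and 9.27 in A2, 9.99 and 9.96 in DAC2 and 9.64 and 9.52 in REF2, with 9.21 and 9.05 in DAC8 and 8.66 and 8.50 in REF1. Kif20a, a motor of the late spindle, did not separate the iPS lines from DAC8, from which A1 differed by 0.05 ± 0.083 log2 units (SE, limma adjusted p = 0.588). DAC8 exceeded REF1 in Kif20a by 0.55 ± 0.083 log2 units (SE, limma adjusted p = 0.00215).

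**Figure D3:**
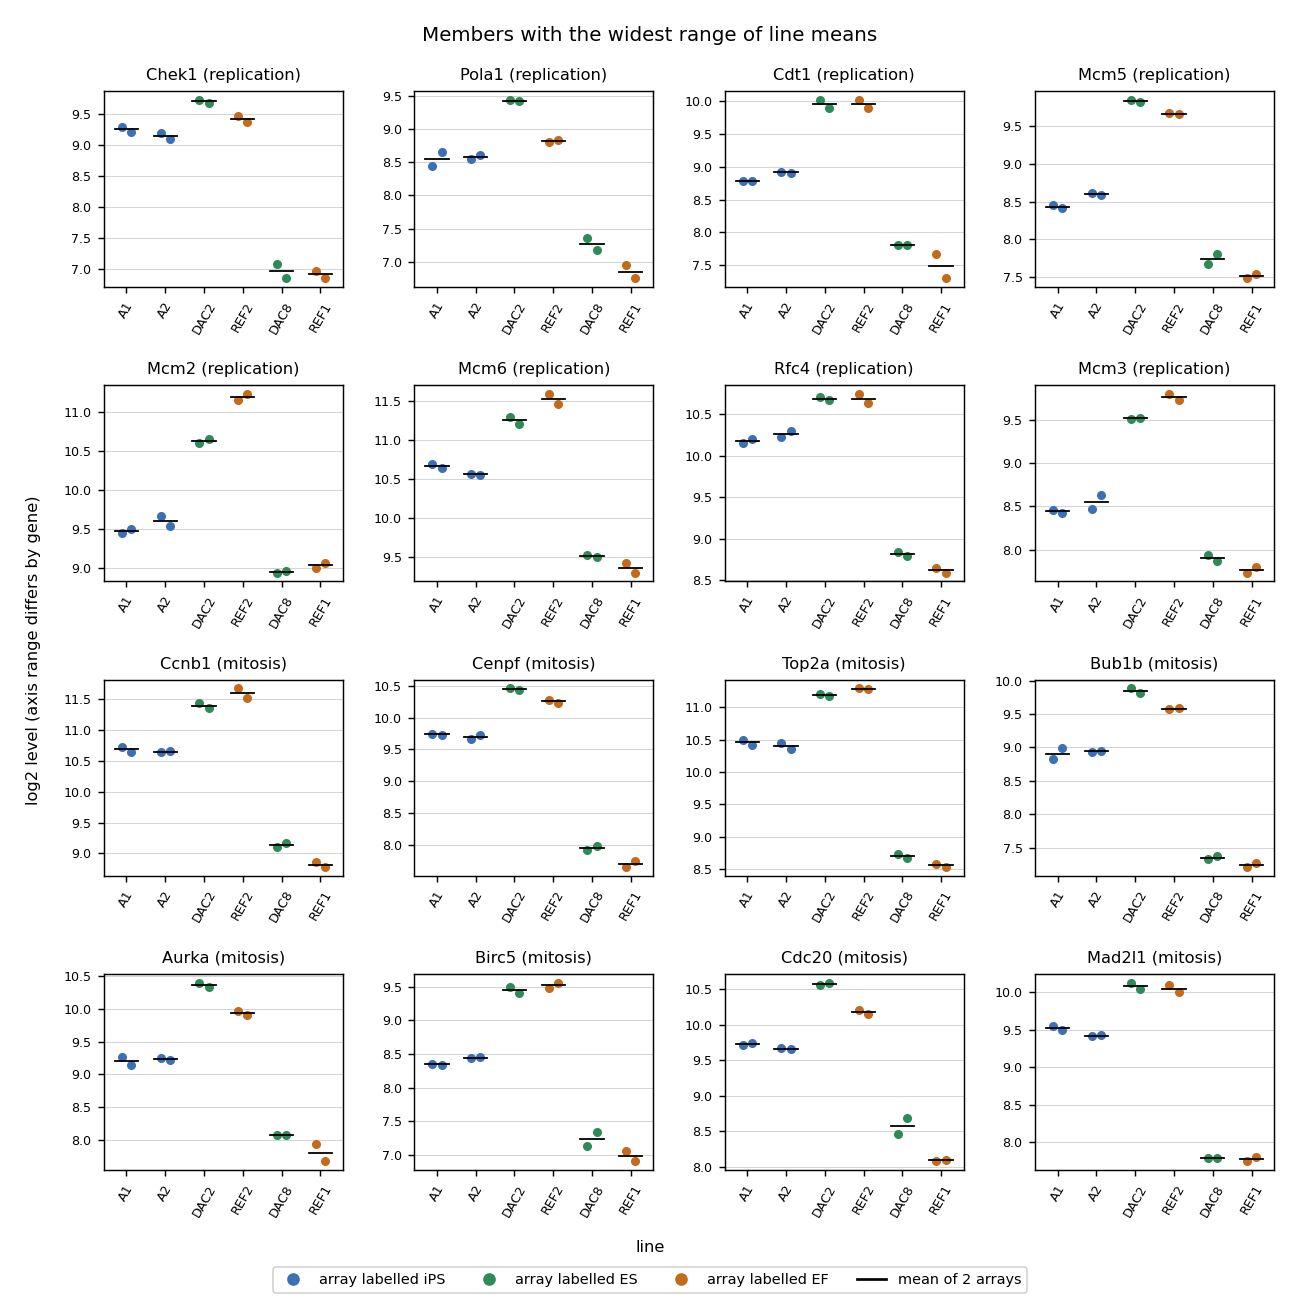
Log2 level on each of the 12 arrays, 2 per line, for the 8 replication genes and the 8 mitosis genes with the widest range of line means. In Chek1 the DAC8 and REF1 arrays lie at 6.84 to 7.07 and all others at 9.10 or above.

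Few differences were called between the iPS lines. Between A1 and A2 limma called 1 of 43 genes, Ect2, a regulator of cytokinesis, higher in A1 by 0.25 ± 0.052 log2 units (SE, limma adjusted p = 0.0474), against 1.94% of all genes called and 1.38% called higher, and 2 genes had an unadjusted p under 0.05. No gene was called when any single array was left out, when the arrays were shifted to equal medians, with no filter or a filter on line means, or with the replicate number as a block. Median differences were -0.03 for replication and 0.03 for mitosis genes.

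Against DAC2, the ES line whose markers match its label, most genes were lower in the iPS lines. For A1 limma called 38 of 43 genes, 5 higher and 33 lower, against 79% of all genes called, 38.2% higher and 40.9% lower. Of replication genes 15 of 23 were lower and 4 higher, with a median difference of -0.41. Of mitosis genes 18 of 20 were lower and 1 higher, with a median of -0.65, against -0.05 over all genes. The higher genes were Mcm7, Rrm1, Tk1, Cdk2 and Mki67, and Mcm7 lost its call when the arrays were shifted to equal medians. For A2 the call was 39 genes, 5 higher and 34 lower, against 79.7% of all genes, 38.2% higher and 41.5% lower. All 6 spindle, kinetochore and cytokinesis genes and all 4 checkpoint and activator genes of mitosis were lower in A1 than in DAC2, as were 5 of 6 helicase subunits, but only 1 of 3 nucleotide supply genes. At least 2-fold, 6 of the 43 genes were lower in A1, a share near the 12.9% of all genes. Only 1 was higher by as much, against 17% of all genes.

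Set against REF2, 31 genes were called in A1, 3 higher and 28 lower, against 78.8% of all genes, 39.2% higher and 39.6% lower. In A2 it was 34, 6 higher and 28 lower, against 79.4%, 39.3% higher and 40.1% lower. Median differences of A1 were -0.33 for replication and -0.49 for mitosis genes.

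Against REF1, the culture whose markers match the fibroblast label, nearly every gene was higher in the iPS lines. For A1 limma called 42 of 43 genes, all of them higher, against 80.2% of all genes called and 47.1% called higher, with Ccne1 the exception. At least 2-fold were 31, 14 of replication and 17 of mitosis, against 17% of all genes. Median differences were 1.12 for replication and 1.60 for mitosis genes, against 0.15 over all genes. A2 gave the same count, 42 higher, against 80.5% of all genes called and 47.3% higher, with medians of 1.11 and 1.52. Against DAC8 the count was 40 higher and 1 lower, Ccne1, in A1, against 80% of all genes called, 46.8% higher and 33.3% lower. In A2 it was 40 and 1, against 80.1%, 46.9% higher and 33.2% lower. Median differences of A1 from DAC8 were 0.97 for replication and 1.32 for mitosis genes.

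DAC2 exceeded REF1 in 41 genes and was lower in 1, Tk1, by limma, against 84.5% of all genes called, 48.6% higher and 35.9% lower. At least 2-fold were 37 genes, all 20 mitosis genes and 17 of 23 replication genes, against 20% of all genes higher by as much. The median was 1.51 for replication and 2.06 for mitosis genes, against 0.19 over all genes. REF2 exceeded DAC8 in 42 genes, against 83.8% of all genes called, 47.4% higher and 36.3% lower, with medians of 1.46 and 1.71. It exceeded REF1 in 43 genes, against 83.7% called, 47.9% higher and 35.8% lower, with medians of 1.48 and 1.93. DAC2 exceeded DAC8 in 41 genes and was lower in 1, Tk1, against 84.4% called, 48.3% higher and 36.1% lower. These comparisons share lines, so they are not independent of one another.

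**Figure D4:**
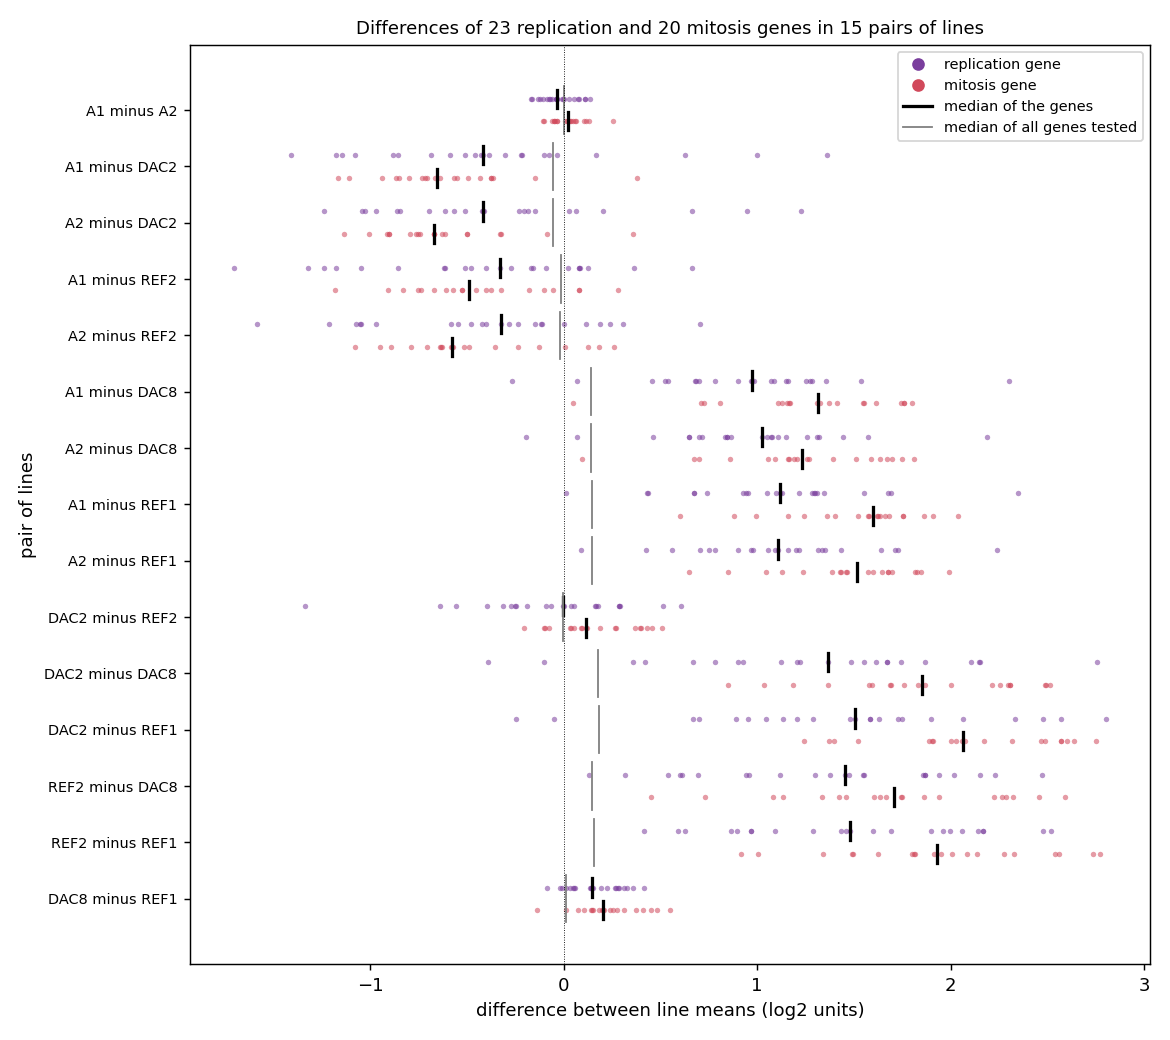
Differences of the 43 genes, in log2 units, in each of the 15 pairs of lines, replication and mitosis genes apart, with the median of each group and of all genes tested. Medians run from -0.67 for mitosis genes in A2 against DAC2 to 2.06 in DAC2 against REF1.

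Differences were smaller between DAC2 and REF2 and between DAC8 and REF1. DAC2 differed from REF2 in 25 genes by limma, against 47.5% of all genes, 21.8% higher and 25.7% lower. Replication genes split, 7 higher in DAC2 and 9 lower, with 4 of the 6 helicase subunits lower and 3 of the 4 polymerase and primase genes higher. Mitosis genes were higher in 8 and lower in 1, Ccnb1. Tk1 was called with a difference of at least 2-fold, and no other of the 43 genes was, against 3.9% of all genes. The count fell to 15 without either array of DAC2. DAC8 exceeded REF1 in 17 genes, 8 of replication and 9 of mitosis, and was lower in 0, against 20.3% of all genes called, 11.2% higher and 9.09% lower. By unadjusted p under 0.05 there were 26. The largest of these differences was that of Kif20a. The count was 11 and 7 without replicate 1 or 2 of DAC8 and 7 without replicate 2 of REF1.

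By cell type as labelled, with 2 lines each, limma with the line as a random block called 0 of 43 genes for iPS against EF, against 5.35% of all genes, with 1 gene at an unadjusted p under 0.05. It called 0 for iPS against ES, against 4.84%, with 1 at an unadjusted p under 0.05, and 0 for ES against EF, against 0%, with 0 such genes. On line means the counts were also 0 of 43 in each comparison. Median differences of replication and mitosis genes were 0.37 and 0.55 for iPS against EF, 0.33 and 0.36 for iPS against ES, and 0.09 and 0.18 for ES against EF. With the lines labelled DAC8 and REF2 left out, the comparisons became A1 and A2 against REF1, A1 and A2 against DAC2, and DAC2 against REF1. Only 1 line then stood for ES and 1 for EF, so the calls that follow compare lines and cannot be read as results about cell types. Limma then called 42 genes, all higher, against 82.5% of all genes, 39 genes, 5 higher and 34 lower, against 82.1%, and 42 genes, 41 higher and 1 lower, against 84.1%. The difference between iPS and ES arrays had a positive median with DAC8 included and was mostly negative without it.

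Further genes of both processes were listed beside the 43. Of 37 other replication genes, limma called 34 higher and 0 lower in A1 than in REF1, and 2 higher and 29 lower than in DAC2, with medians of 1.09 and -0.43. Of all genes tested, 47.1% were higher and 33.1% lower than in REF1, and 38.2% and 40.9% than in DAC2. Uhrf1, which brings the maintenance DNA methyltransferase to replicated DNA, had line means of 10.12 and 10.23 in A1 and A2, 10.82 in DAC2, 11.02 in REF2, and 8.36 and 8.22 in DAC8 and REF1. Orc1, of the origin recognition complex, had means of 7.37, 7.43, 8.68, 8.39, 6.13 and 5.96 in the same order. Dtl, which directs the breakdown of Cdt1 in S phase, had means of 9.75, 9.69, 10.30, 10.84, 8.36 and 8.21. Of 42 other mitosis genes, 42 were higher in A1 than in REF1, and 7 were higher and 30 lower than in DAC2, against the same shares of all genes, with medians of 1.31 and -0.37. Pttg1, or securin, had line means of 10.93 and 10.85 in A1 and A2, 11.19 in DAC2, 11.08 in REF2, and 8.51 and 8.21 in DAC8 and REF1. Sgo1, which protects cohesin at centromeres, had means of 9.27, 9.29, 9.85, 10.30, 7.38 and 7.37 in the same order. Plk4, the kinase of centriole copying, was instead highest in the iPS lines, at 10.49 and 10.09 against 9.55 in DAC2, 9.58 in REF2, and 8.0 and 8.20 in DAC8 and REF1. The order of DAC2 and REF2 above A1 and A2 above DAC8 and REF1 held in 26 of the 37 and 21 of the 42, against 12.8% of all genes.

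Median differences were also taken by role, as a description. In A1 against DAC2, the median difference was -0.83 over the 6 helicase subunits, -0.41 over the 4 polymerase and primase genes and 0.63 over the 3 nucleotide supply genes. It was -0.74 over licensing genes and -0.46 over S-phase kinase and checkpoint genes. Flap nuclease and ligase had -0.26, and clamp and clamp loader genes -0.21. Over the mitosis roles the median was -0.74 for kinases and passenger genes, -0.71 for checkpoint genes, -0.69 for spindle, kinetochore and cytokinesis genes and -0.54 for cyclins and Cdk1. The 2 mitotic chromosome genes went in opposite directions, Top2a lower and Mki67 higher, with a median of -0.18. In A1 against REF1 the medians were 0.80 for helicase subunits, 1.24 for polymerase and primase genes and 1.12 for nucleotide supply genes. The other replication roles had medians of 0.95 to 1.29. Among mitosis roles the medians were 1.65 for checkpoint genes and 1.43 for spindle, kinetochore and cytokinesis genes. They were 1.55 for cyclins and Cdk1, 1.38 for kinases and passenger genes and 1.76 for mitotic chromosome genes. No called difference among the 43 genes changed sign in any of the 15 pairs when the arrays were quantile-normalized or shifted to equal medians, which moved the median difference of all genes by up to 0.10 log2 units. In 10 of the 43 genes other probe sets were present, 15 in all. Their differences had the same sign as those of the probe set used in 10 of the 10 genes for A1 against REF1, 9 for A1 against DAC2, and 8 each for DAC2 against REF1 and DAC2 against REF2.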

How the data were processed

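The 12 arrays, 2 per line, each held 31099 probe sets. The deposited values are log2 signals made by the authors with RMA and Partek 6.2, per the submitters' processing notes. RMA compresses differences of dim and of saturated probe sets. Joint normalization of the arrays is not stated in the sources used here. The values were used unchanged, with no depth to give: the number of arrays limits the precision.

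Symbols came from the platform's table, and a gene needed a mean of at least 5 in its highest cell type. Differences between lines came from limma 3.58.1 under R 4.3.3 with the 6 lines as the factor, and cell types were fitted with the line as a random block (correlation 0.966). P-values were adjusted by Benjamini-Hochberg over 10510 genes and called under 0.05, and a second rule also asked for at least 1 log2 unit, or 2-fold. In simulated data with known changes, the fit by line recovered 10% of changes of 0.25 log2 units and 94% of those of 1. It made 13 false calls among 152. In the measured data 8308 of 10510 genes were called for A1 against DAC2. Where so many genes differ the adjusted p cut-off is more lenient. The recovery of the fit by line therefore does not extend to such pairs. The fit by cell type recovered 92% of changes of 1 log2 unit and made 37 false calls among 232. Its simulated spread between lines came from A1 and A2, which differ far less than the lines labelled ES or those labelled EF. This recovery therefore does not extend to the cell-type counts reported here. Values per array are given for the 8 genes with the largest and the 4 with the smallest range of line means in each group, and line means for the 3 with the largest range in each further list. Motifs were searched in Python 3.11.15. The members, lists and rules were chosen with earlier results of these data known. The main fits did not pair arrays by replicate number. Deviations of same-numbered arrays correlated between lines at -0.08 to 0.24 over the 15 pairs, with 3 over 0.1. The highest were 0.24 for DAC2 with REF2 and 0.18 for A1 with A2. These values do not settle whether some lines were paired. Alternatives were other filters, normalizations, probe set rules and variance models, a replicate block, and each array left out.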

Additional observations from a re-analysis of the deposited data

How the results depend on the processing

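Of 281 counts recomputed under another filter, normalization, probe set rule, variance model, block or set of lines, 271 stayed within 1.5 times the reported count, as did 391 of 408 with an array left out. The 1 gene called between A1 and A2 became 0 with no filter, with a filter on line means at 5, with equal medians and with the replicate block, and 0 with any array left out. The replicate block moved no other count by over 1.5 times. Between DAC8 and REF1 the count of 17 became 26 with an intensity trend and lay between 7 and 16 with an array left out. Between DAC2 and REF2 the count of 25 lay between 15 and 25. For cell types, no line block gave 2 genes for iPS against EF and 3 for iPS against ES. Leaving out the lines labelled DAC8 and REF2 gave 42 for iPS against EF, 39 for iPS against ES and 42 for ES against EF. These last counts compare lines, as 1 line was left for ES and 1 for EF. The 126 differences of named genes and medians were each recomputed under other settings and with each array left out. Of these recomputed values, 995 under other settings and 1485 with an array left out kept their result. Among the rest 0 reversed, 30 lost and 9 gained a call, most of them small differences between DAC2 and REF2. In 1 case a median moved, that of replication genes between DAC2 and DAC8, to 1.22 with the mean of probe sets. The cause of these shifts was not tested. With 2 arrays per line and possibly shared cultures, the p-values cover the spread between arrays only, and 1 probe set stands for each gene.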

Other observations

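Of 20 regulators of the cell cycle's transcription, a list beside the 43 genes, limma called 16 higher and 2 lower in A1 than in REF1, against 47.1% and 33.1% of all genes tested. Against DAC2 it called 8 higher and 8 lower, shares near the 38.2% and 40.9% of all genes. Median differences were 0.63 and -0.01. Mybl2, a factor of the complex that acts through the CHR element, had line means of 8.50 and 8.42 in A1 and A2, 10.90 in DAC2, 10.74 in REF2, and 6.88 and 6.86 in DAC8 and REF1. E2f2, an activating E2F factor, was instead highest in the iPS lines, at 6.72 and 6.87 against 5.53 in DAC2, 5.32 in REF2, and 3.29 and 3.44 in DAC8 and REF1. It passed the filter at 5 only through the iPS group, and its levels in DAC8 and REF1 lay under that filter. Ccne2, the second E cyclin, also peaked in the iPS lines, at 8.91 and 9.05. It was lower in DAC2 and REF2, at 6.90 and 7.02, than in DAC8 and REF1, at 8.26 and 8.04.

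Of 18 genes of recombination and repair in S phase, limma called 17 higher and 0 lower in A1 than in REF1, and 1 higher and 14 lower than in DAC2, with medians of 1.20 and -0.53, against the same shares of all genes. Msh6, of mismatch repair, had line means of 9.58 and 9.55 in A1 and A2, 11.21 in DAC2, 10.84 in REF2, and 8.57 and 8.36 in DAC8 and REF1. Blm, a helicase of recombination, had means of 8.80, 8.85, 9.18, 9.01, 6.14 and 6.44 in the same order. Rad54l, a motor of strand exchange, had means of 8.09, 8.01, 8.71, 8.47, 5.71 and 5.80.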
